A study of Homo sapiens with 6 samples.

Results

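SERPINs (serine protease inhibitors) were described in Hep3B cells, a human hepatocellular carcinoma line, given siRNA against SMARCA4 (si-SMARCA4, 3 libraries) or control siRNA (si-Cont, 3 libraries). Members were all genes of the deposited table whose symbol is SERPIN followed by a clade letter from A to I and a number, which gave 34 of 57773 genes. SMARCA4 (BRG1) is an ATPase that moves nucleosomes in SWI/SNF complexes. All cells belong to 1 line and were transfected. The siRNA sequences and the time after transfection are not known here. The labels do not say whether the 3 libraries of a group came from separate cultures, so each p-value reflects the scatter of these libraries, which may be technical.

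A SERPIN folds into a metastable shape that exposes a flexible reactive centre loop. A target protease cuts this loop as if it were a substrate, the loop inserts into the main sheet of the inhibitor, and the protease is dragged along and trapped in a covalent complex. Hepatocytes secrete many SERPINs into plasma, where they restrain elastase, clotting factors and plasmin. Clade A members are mostly secreted and clade B members mostly stay inside the cell. Some members inhibit nothing and serve as hormone carriers, collagen chaperones or trophic factors.

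Values are FPKM, which are reads scaled by gene length and by the reads of the library. They were compared on log2(FPKM + 1) for genes with a mean of at least 1 FPKM over the 6 libraries, with limma and Benjamini-Hochberg adjustment over all 11123 such genes at an adjusted p of 0.05. SMARCA4 itself stood at 3.80, 3.78 and 4.01 FPKM in si-SMARCA4 and at 15.8, 19.5 and 16.6 FPKM in si-Cont, and its log2 fold change was -1.91 (limma adjusted p = 1.63e-08). Reads over genes numbered 19084308 to 22719014 per library. The library reads that scale the FPKM, recovered from the values, numbered 29138265 to 33822440. Reads over genes made up 62.84% to 64.25% of them in si-SMARCA4 and 65.5% to 69.47% in si-Cont. The summed FPKM of all genes were also lower in si-SMARCA4 (159084.6 to 163932.8, against 167786.4 to 182293.1 in si-Cont). Fits with other scalings are given at the end. On the second principal component (8.58% of the variance) si-Cont replicate 2 lay at -10.96 and the other 5 libraries between -1.83 and 5.70. That library was the lowest of its group for 13 of the 16 SERPINs tested, against 64.7% of all genes tested. All 8 hepatocyte markers lay above 1 FPKM, with a summed level of 2168 to 2300 FPKM in si-SMARCA4 and 3134 to 3504 FPKM in si-Cont. Most of that sum was ALB (1425 FPKM in si-SMARCA4, 2269 FPKM in si-Cont on average). Of the 8, ALB, AFP, APOA1, APOB and HNF4A fell, TTR rose, and APOH and TF did not pass the threshold. Of the other lists, 3 of 5 cholangiocyte markers (KRT19, EPCAM and SOX9) lay above 1 FPKM, with sums of 133 to 140 FPKM in si-SMARCA4 and 151 to 163 FPKM in si-Cont. So did 2 of 8 fibroblast and stellate markers (LUM and PDGFRA, list sums of 13.3 to 13.9 FPKM in si-SMARCA4 and 9.53 to 10.6 FPKM in si-Cont). LYZ alone did so among 6 immune markers (list sums of 16.2 to 16.8 FPKM in si-SMARCA4 and 15.3 to 17.5 FPKM in si-Cont). No endothelial or keratinocyte marker did: VWF, CDH5, KDR, KRT14 and IVL were listed at 0, TEK, KRT5 and DSG3 had at most 3 reads in a library, and TP63 had 15 to 26 reads in si-SMARCA4 and 13 to 28 in si-Cont. The part of these differences in the SERPIN results was not tested. In bulk RNA, fewer cells of a type and less RNA per cell cannot be told apart.

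Of the 34 SERPIN genes, 16 reached a mean of 1 FPKM and were tested, 9 lay under it and 9 were listed at 0 in every library. Among the 16, 5 rose in si-SMARCA4 (among them SERPINA3, SERPINB8, SERPINA1 and SERPIND1) and 8 fell (SERPINF1, SERPINB1, SERPINF2, SERPINH1, SERPINA6, SERPINA5, SERPINI1 and SERPINB6). SERPINA10, SERPINB9 and SERPINE2 did not pass the threshold. Over all genes tested 56.0% passed it, 22.4% higher and 33.6% lower. Of all calls 40.1% were higher (2494 higher, 3733 lower), and with upper-quartile scaling 52.2% (3425 higher, 3137 lower). Among the 16 SERPINs 31.2% were called higher and 8 of 16 lower. The median log2 fold change was -0.103 for the 16 SERPINs and -0.043 for all genes tested. Its median size without sign was 0.320 for the SERPINs and 0.173 for all genes. The groups did not overlap for 14 of the 16, where all genes tested gave 62.3%. SERPINB8 lay under 1 FPKM in si-Cont and entered the test only through its si-SMARCA4 level, so these counts describe the genes that passed the filter and not the family as a whole. Each exact permutation test of a member whose groups did not overlap gave p = 0.1, the smallest that 3 against 3 libraries allow.

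**Figure D1:**
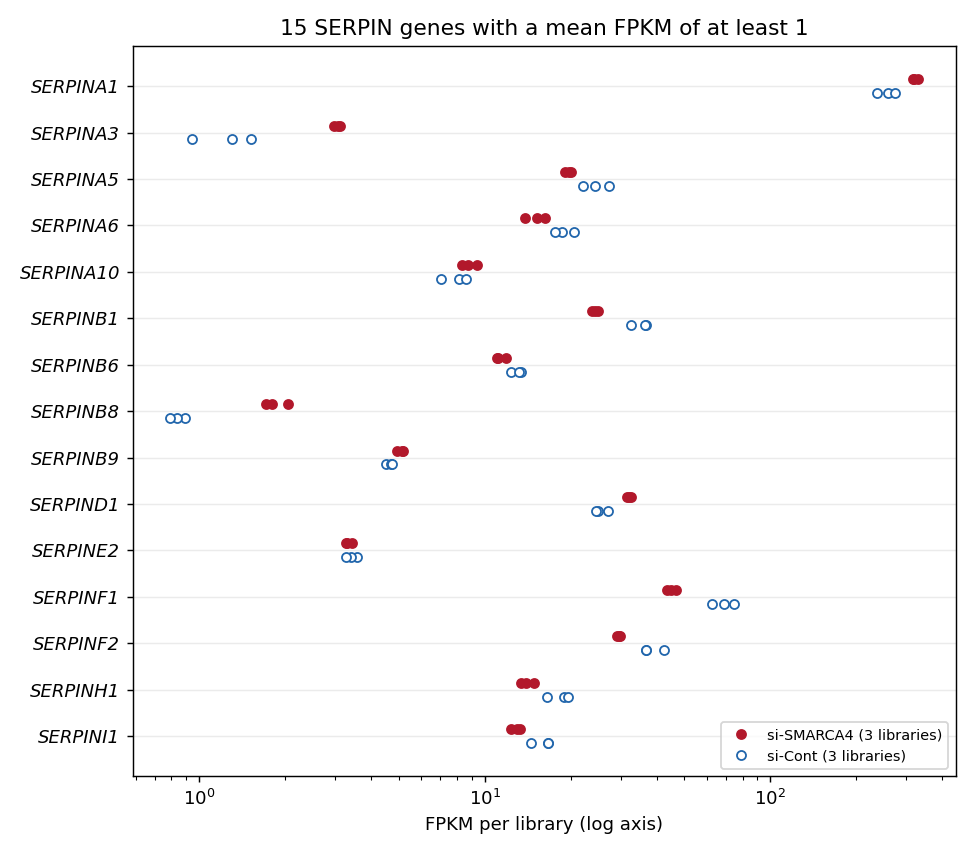
FPKM of 15 of the 16 tested SERPIN genes (log axis), 1 point per library, with si-SMARCA4 filled and drawn above si-Cont, which is open. SERPINA1 lies highest at 316 to 330 FPKM in si-SMARCA4 and 237 to 273 FPKM in si-Cont, and only SERPINA10 and SERPINE2 have groups that overlap.

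In clade A, 2 members rose and 2 fell among the 5 tested. SERPINA1, alpha-1-antitrypsin, is the main plasma inhibitor of neutrophil elastase and was the most abundant SERPIN. It stood at 318, 316 and 330 FPKM in si-SMARCA4 and at 259, 237 and 273 FPKM in si-Cont. All 3 si-SMARCA4 libraries lay above all si-Cont libraries (log2 fold change 0.33, SE 0.07, limma adjusted p = 0.00226). SERPINA3, alpha-1-antichymotrypsin, an acute phase protein that inhibits cathepsin G and chymase, had 2.96, 3.12 and 3.07 FPKM in si-SMARCA4 and 1.31, 0.945 and 1.52 FPKM in si-Cont. Its level was far lower than that of SERPINA1 and its ratio higher, at 2.42 (log2 fold change 0.85, SE 0.08, limma adjusted p = 1.08e-05). The added 1 FPKM draws in the log2 change of such low genes, and with 0.1 or 5 FPKM added in its place the log2 fold change of SERPINA3 was 1.24 or 0.36. That of SERPINB8, another low member, was 1.05 or 0.23. Both stayed past the threshold with either. SERPINA3 shares 1592 exon bases with AL049839.2 on the same strand in the GENCODE v29 annotation, a gene with a mean of 0.251 FPKM, so the placing of some reads is uncertain.

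SERPINA5, the protein C inhibitor, which also blocks urokinase, had 19.8, 19.1 and 20.1 FPKM in si-SMARCA4 and 24.4, 22.1 and 27.2 FPKM in si-Cont. SERPINA6, the corticosteroid-binding globulin, carries cortisol and inhibits no protease. It had 15.2, 13.9 and 16.2 FPKM in si-SMARCA4 and 18.7, 17.6 and 20.5 FPKM in si-Cont. Both moved by a similar amount, with log2 fold changes of -0.30 (SE 0.07, limma adjusted p = 0.00354) for SERPINA5 and -0.31 (SE 0.07, limma adjusted p = 0.00307) for SERPINA6. SERPINA10, the protein Z-dependent inhibitor of factor Xa, had 8.74, 8.31 and 9.43 FPKM in si-SMARCA4 and 8.15, 7.05 and 8.62 FPKM in si-Cont. Its groups overlapped, and its log2 fold change of 0.14 (95% interval -0.015 to 0.293) gave a limma adjusted p of 0.113. With the replicate number as a block the same difference gave an adjusted p of 0.0223, and without si-Cont replicate 3 an adjusted p of 0.0444.

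In clade B, the intracellular SERPINs, 1 member rose and 2 fell among the 4 tested. SERPINB1, the leukocyte elastase inhibitor, protects cells against their own granule proteases. It had 24.3, 23.7 and 24.9 FPKM in si-SMARCA4 and 36.7, 32.6 and 36.5 FPKM in si-Cont, without overlap (log2 fold change -0.52, SE 0.06, limma adjusted p = 3.12e-05). SERPINB6, an inhibitor of trypsin-like proteases and cathepsin G, had 11.9, 11.1 and 11.2 FPKM in si-SMARCA4 and 13.4, 12.3 and 13.2 FPKM in si-Cont. This fall was the smallest of the 8 (log2 fold change -0.18, SE 0.05, limma adjusted p = 0.0127) and missed the threshold without si-SMARCA4 replicate 2 (adjusted p = 0.0612) or without si-SMARCA4 replicate 3 (adjusted p = 0.0558). SERPINB8, which inhibits furin in vitro, had 1.80, 1.71 and 2.04 FPKM in si-SMARCA4 and 0.894, 0.839 and 0.792 FPKM in si-Cont. These levels correspond to 244 to 273 reads per library in si-SMARCA4 and 107 to 129 in si-Cont (log2 fold change 0.63, SE 0.06, limma adjusted p = 9.45e-06, ratio of mean FPKM 2.20). SERPINB8 shares 370 exon bases with HMSD on the same strand in the GENCODE v29 annotation, so the assignment of some reads is uncertain. It also shares 257 exon bases with AC009802.1 on the opposite strand, a gene without a value in the deposited table. HMSD averaged 1.18 FPKM in si-SMARCA4 and 1.07 FPKM in si-Cont (limma adjusted p = 0.579). SERPINB9, the inhibitor of granzyme B, had 5.19, 5.13 and 4.92 FPKM in si-SMARCA4 and 4.52, 4.71 and 4.75 FPKM in si-Cont. Its libraries did not overlap, but the difference was small and did not pass (log2 fold change 0.10, 95% interval 0.003 to 0.203, limma adjusted p = 0.0748). Both SERPINA10 and SERPINB9 passed the threshold as higher with upper-quartile scaling, at adjusted p of 0.0106 and 0.0132 in limma.

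Outside clades A and B, 2 members rose and 4 fell among the 7 tested. SERPINE2, protease nexin 1, a thrombin and urokinase inhibitor, had 3.43, 3.31 and 3.26 FPKM in si-SMARCA4 and 3.59, 3.41 and 3.26 FPKM in si-Cont. The groups of SERPINE2 overlapped (log2 fold change -0.03, 95% interval -0.134 to 0.079, limma adjusted p = 0.654), and its sign turned under other scalings. SERPIND1, heparin cofactor II, inhibits thrombin in the presence of glycosaminoglycans. It had 32.0, 31.5 and 32.4 FPKM in si-SMARCA4 and 24.9, 24.6 and 27.1 FPKM in si-Cont, all si-SMARCA4 libraries above all si-Cont libraries (log2 fold change 0.31, SE 0.05, limma adjusted p = 0.000543).

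Both clade F members fell. SERPINF1, pigment epithelium-derived factor, is a secreted anti-angiogenic and neurotrophic protein that inhibits no protease. It had 45.0, 43.4 and 46.7 FPKM in si-SMARCA4 and 68.9, 62.6 and 74.5 FPKM in si-Cont. That was the lowest log2 fold change of the family (-0.59, SE 0.07, limma adjusted p = 3.40e-05), with 453 of 11123 genes lower. SERPINF2, alpha-2-antiplasmin, the direct inhibitor of plasmin, had 29.6, 29.1 and 29.7 FPKM in si-SMARCA4 and 36.8, 36.7 and 42.3 FPKM in si-Cont (log2 fold change -0.38, SE 0.06, limma adjusted p = 0.000447). All 3 si-SMARCA4 libraries lay below all si-Cont libraries for both genes.

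SERPINH1, also called HSP47, is a collagen chaperone of the endoplasmic reticulum and no inhibitor. It had 13.9, 13.4 and 14.9 FPKM in si-SMARCA4 and 19.0, 16.5 and 19.5 FPKM in si-Cont (log2 fold change -0.36, SE 0.07, limma adjusted p = 0.00104). SERPINI1, neuroserpin, best known as a neuronal inhibitor of tissue-type plasminogen activator, had 12.9, 13.3 and 12.4 FPKM in si-SMARCA4 and 16.6, 14.5 and 16.6 FPKM in si-Cont (log2 fold change -0.28, SE 0.06, limma adjusted p = 0.00241). For both genes every si-SMARCA4 library lay below every si-Cont library. AGT, the angiotensin precursor, has the SERPIN fold and inhibits no protease but does not carry the family symbol, and it averaged 142 ± 7.31 FPKM in si-SMARCA4 and 203 ± 18.4 FPKM in si-Cont (SD, n = 3 each, log2 fold change -0.51, limma adjusted p = 0.000219).

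**Figure D2:**
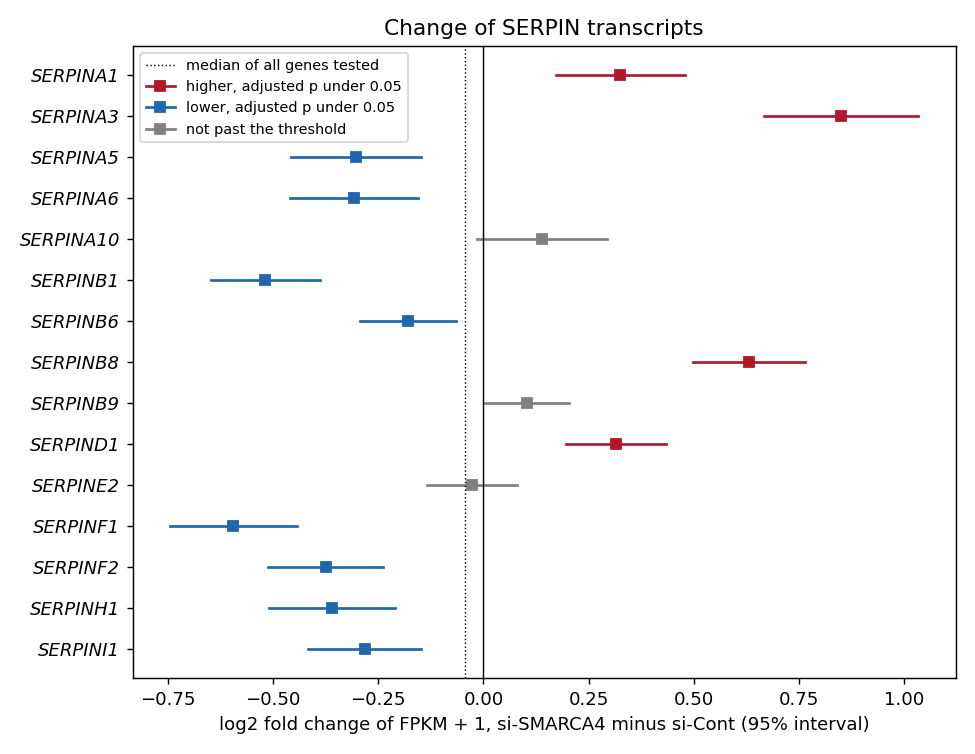
Log2 fold change of FPKM + 1 (si-SMARCA4 minus si-Cont) with its 95% interval for 15 of the 16 tested SERPIN genes, coloured by call, with a dotted line at the median of all genes tested (-0.043). SERPINA3 lies at 0.85 and SERPINF1 at -0.59, and the intervals of SERPINA10 and SERPINE2 include 0.

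The 9 members with reads but a mean under 1 FPKM are given as levels without a test. The highest of them, SERPINA4 (kallistatin, which binds tissue kallikrein), stood just under the limit at 0.797, 0.894 and 1.05 FPKM in si-SMARCA4 and 0.662, 0.807 and 0.761 FPKM in si-Cont, whereas SERPINB8, just above it, averaged 1.85 FPKM in si-SMARCA4 and 0.842 FPKM in si-Cont. SERPINA7, the thyroxine-binding globulin, ranged from 0.678 to 0.854 FPKM in si-SMARCA4 and from 0.555 to 0.722 FPKM in si-Cont. The groups overlapped for both genes. SERPING1, the C1 inhibitor of complement and contact activation, had 0.287 to 0.461 FPKM in si-SMARCA4 and 0.396 to 0.485 FPKM in si-Cont. SERPINE3 had 0.306 to 0.412 FPKM in si-SMARCA4 and 0.366 to 0.489 FPKM in si-Cont, and it shares 789 exon bases with INTS6 on the opposite strand, which cannot be separated without strand information. SERPINC1, antithrombin, a major plasma anticoagulant made by liver, was low in this line, with 8 to 17 reads per library in si-SMARCA4 and 2 to 8 reads in si-Cont. Its highest library reached 0.296 FPKM in si-SMARCA4 and 0.138 FPKM in si-Cont. SERPINA11, SERPINI2, SERPINB4 and SERPINB7 had at most 3 reads in any library.

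The 9 genes listed at 0 in all 6 libraries were SERPINA9, SERPINA12, SERPINB2, SERPINB3, SERPINB5, SERPINB10, SERPINB11, SERPINB12 and SERPINB13. Clade B supplied 7 of them out of its 13 members. SERPINB3 and SERPINB4, the squamous cell carcinoma antigens, are near-identical copies, so reads of this pair could be hard to place, and SERPINB4 had 1 read in 1 library.

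SERPIN genes lie in clusters, and neighbours did not all move together. On chromosome 14, in the order of the GENCODE v29 annotation, the members run SERPINA10, SERPINA6, SERPINA1, SERPINA11, SERPINA9, SERPINA12, SERPINA4, SERPINA5 and SERPINA3. The adjacent members SERPINA6 and SERPINA1 differed in direction (-0.31 and 0.33), as did SERPINA5 and SERPINA3 at the other end (-0.30 and 0.85). SERPINA4 and SERPINA5 share 53 exon bases on the same strand, and SERPINA5 shares 79 with AL049839.2 on the same strand. Of the 10 members on chromosome 18, SERPINB8 was the only one to reach a mean of 1 FPKM. On chromosome 6 SERPINB1 and SERPINB6 fell (-0.52 and -0.18) and SERPINB9 between them had a log2 fold change of 0.10 that did not pass. On chromosome 17 the adjacent SERPINF2 and SERPINF1 both fell (-0.38 and -0.59).

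**Figure D3:**
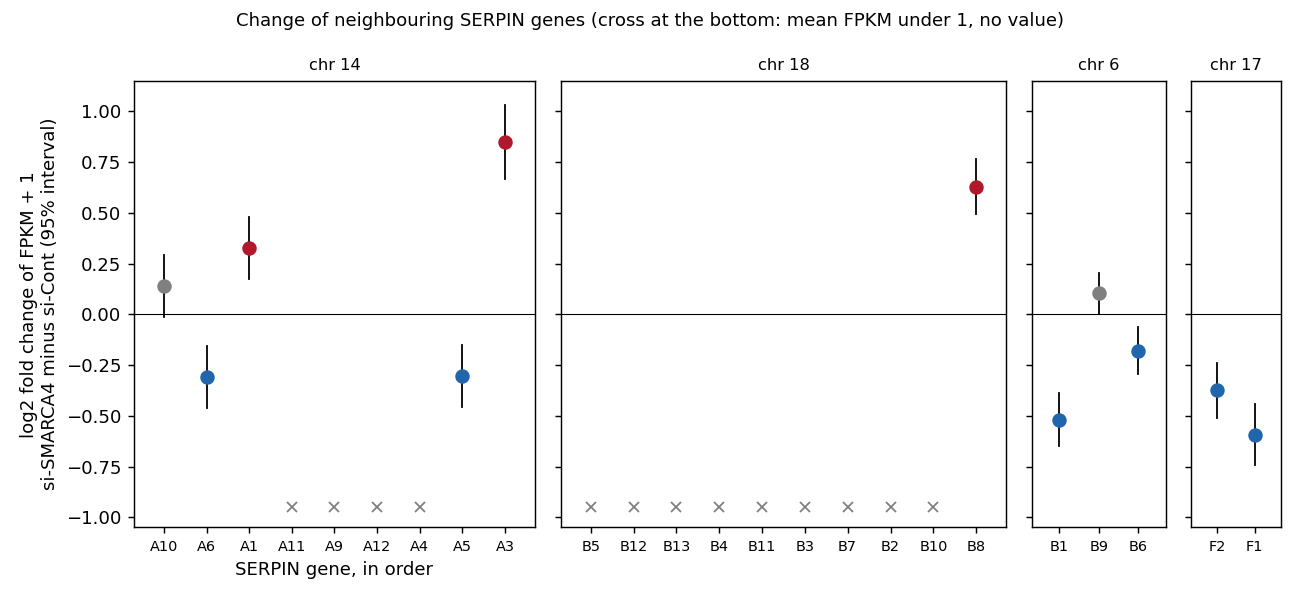
Log2 fold change of FPKM + 1 (si-SMARCA4 minus si-Cont, bars are 95% intervals) for SERPIN genes in their order on 4 chromosomes, in red where higher, blue where lower and grey where not past the threshold. Crosses at the bottom mark genes under a mean of 1 FPKM, which have no value. SERPINA1 (0.33) lies beside SERPINA6 (-0.31) on chromosome 14, and SERPINB8 (0.63) is the one gene with a value on chromosome 18.

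The make-up of the family was read from each member's share of the summed SERPIN FPKM in the same library, which does not depend on how libraries are scaled. All 34 members summed to 561, 553 and 577 FPKM in si-SMARCA4 and to 544, 499.7 and 577 FPKM in si-Cont, with groups that overlapped. SERPINA1 held 56.7%, 57.1% and 57.2% of this sum in si-SMARCA4 and 47.6%, 47.4% and 47.4% in si-Cont. The spread within a group was far under the gap between groups (57.0% ± 0.269 and 47.5% ± 0.135, SD, n = 3 each). Without SERPINA1 the sum was 237 to 247 FPKM in si-SMARCA4 and 263 to 304 FPKM in si-Cont. The share of SERPINF1 was 7.996% ± 0.131 in si-SMARCA4 and 12.7% ± 0.191 in si-Cont (SD, n = 3 each). A share also falls when SERPINA1 takes more of the sum, and SERPIND1 and SERPINA3 still took higher shares in every si-SMARCA4 library (5.68% and 0.541% on average, against 4.73% and 0.231% in si-Cont).

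**Figure D4:**
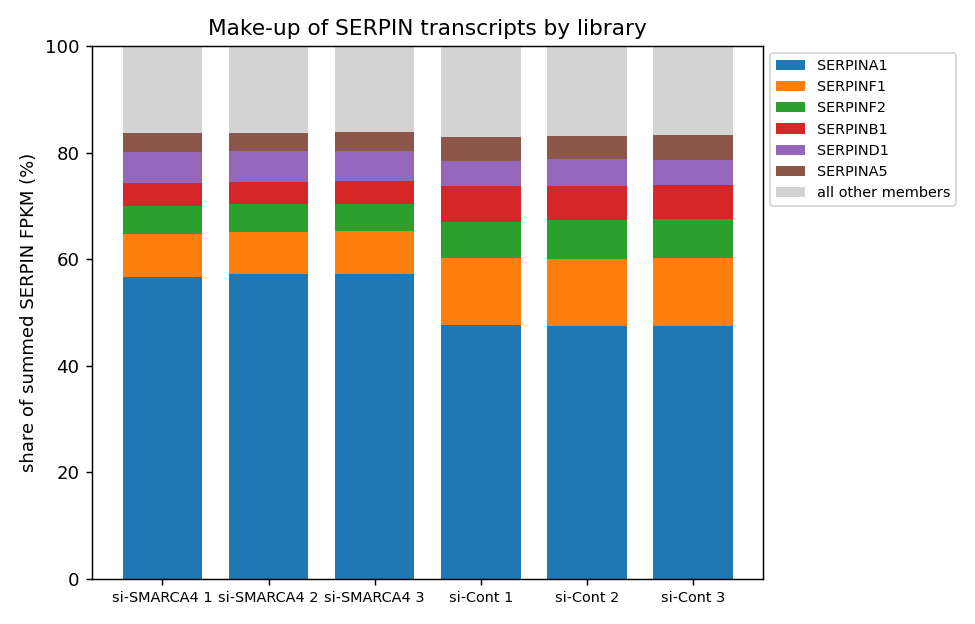
Share of each library's summed SERPIN FPKM (percent, bars start at 0) held by 6 SERPIN genes and by all other members, for 3 si-SMARCA4 libraries and 3 si-Cont libraries. SERPINA1 takes 56.7% to 57.2% in si-SMARCA4 and 47.4% to 47.6% in si-Cont, and SERPINF1 7.996% and 12.7% on average.

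FPKM are per length, so levels can be ordered between genes. SERPINA1 came first in both groups, followed by SERPINF1, and SERPINB8 came last of the 16. SERPIND1 had rank 3 in si-SMARCA4, above SERPINF2 with no overlap, and rank 5 in si-Cont, where it overlapped SERPINA5. In si-Cont SERPINF2 and SERPINB1 also overlapped, which they did not in si-SMARCA4.

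A sequence taken from an earlier look at these data, TGTCCA, was searched in the 3′ UTRs of the members together with its extension by a C before it (CTGTCCA), by an A after it (TGTCCAA) or by both (sense strand, overlapping matches counted as 1 site, the longest 3′ UTR among the coding transcripts of GENCODE v29). This is a description and no test. A site of 7 or 8 bases was found in 2 of the 16 tested SERPINs (12.5%) and in 20.5% of the 10296 tested genes with a 3′ UTR of at least 50 bases. Those 2 were SERPINA10 and SERPINB9. SERPINA3, SERPIND1 and SERPINE2 held only the 6-base sequence. The 6 bases, alone or within a longer site, were in that 3′ UTR of 5 of the 16 tested SERPINs (31.2%) and of 36.2% of tested genes with a 3′ UTR, and in none of the 8 SERPINs that fell, numbers too small to read anything from. The sites of at least 7 bases in tested SERPINs, and the one 8-base site of the family, in SERPINA7, follow with the site in capitals.
SERPINA10: aacaaaatactTGTCCAAggtcttccagt
SERPINB9: aattccaatttCTGTCCActtcctcacca
SERPINA7: gataaacttgcCTGTCCAAccccaccttcc
On GRCh38 these capitals lie at chr14:94282608-94282614, chr6:2888201-2888207 and chrX:106032905-106032912, all on the reverse strand. The SERPINA10 site was annotated in 1 of 4 coding transcripts, the SERPINB9 site in its single one and the SERPINA7 site in 1 of 2. Which transcript Hep3B cells use was not examined.

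Of 38 proteases that SERPINs are known to inhibit, 12 were tested, of which 1 rose and 5 fell, with a median log2 fold change of -0.113. Over all genes tested 22.4% rose and 33.6% fell, with a median of -0.043, so the count called in this list lay near the background. With the replicate block 2 of these proteases rose. F7, the protease that starts clotting with tissue factor, had 5.06, 5.20 and 5.77 FPKM in si-SMARCA4 and 12.6, 11.2 and 13.1 FPKM in si-Cont (a log2 fold change of -1.06, with a limma adjusted p of 3.89e-07). PROC, the protein C that SERPINA5 inhibits, had 8.37, 7.09 and 8.05 FPKM in si-SMARCA4 and 13.8, 12.6 and 15.03 FPKM in si-Cont (a log2 fold change of -0.75, with a limma adjusted p of 9.46e-06). Inhibitor and target therefore both had lower transcripts in si-SMARCA4. The membrane proteases HPN (hepsin) and ST14 (matriptase) averaged 10.7 and 4.64 FPKM in si-SMARCA4, against 15.3 and 6.76 FPKM in si-Cont. Their log2 fold changes were -0.48 (limma adjusted p = 3.09e-05) and -0.46 (limma adjusted p = 2.77e-05). The one that rose was C1S, a complement protease that SERPING1 inhibits, with 1.52, 1.53 and 1.68 FPKM in si-SMARCA4 and 1.23, 1.07 and 1.34 FPKM in si-Cont (a log2 fold change of 0.22, with a limma adjusted p of 0.0107). C1R, another complement protease of the list, lay under a mean of 1 FPKM, was not tested and went the other way. It had 0.894, 0.550 and 0.713 FPKM in si-SMARCA4 and 1.087, 0.939 and 1.085 FPKM in si-Cont, without overlap. Other untested proteases of the list had groups without overlap in both directions. CTSS, CTSK and MASP2 lay higher in si-SMARCA4, and PRSS8 and TMPRSS2 lay lower. CTSS averaged 0.904 FPKM in si-SMARCA4 and 0.276 FPKM in si-Cont. ELANE and CTSG, the neutrophil targets of SERPINA1, SERPINA3 and SERPINB1, were listed at 0 in these cells.

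In the plasminogen system and its clearance receptors, 13 of 19 listed genes were tested, 6 rose and 3 fell, with a median log2 fold change of 0.095, where all genes tested gave 22.4% higher, 33.6% lower and a median of -0.043. Both plasminogen activators were low. PLAU, urokinase, had 0.431, 0.240 and 0.366 FPKM in si-SMARCA4 and 0.576, 0.302 and 0.463 FPKM in si-Cont. PLAT, tissue-type plasminogen activator, had 0.0539 to 0.0826 FPKM in si-SMARCA4 and 0.0723 to 0.0891 FPKM in si-Cont. Neither reached a mean of 1 FPKM, and the groups of both overlapped. The urokinase receptor gene PLAUR averaged 1.09 FPKM in si-SMARCA4 and 1.14 FPKM in si-Cont (a log2 fold change of -0.03, with a limma adjusted p of 0.767). VTN, vitronectin, an adhesive plasma protein, had 127, 119.8 and 128 FPKM in si-SMARCA4 and 105, 94.2 and 115 FPKM in si-Cont (a log2 fold change of 0.25, with a limma adjusted p of 0.0144). VLDLR, a receptor that takes up SERPIN-protease complexes, averaged 2.04 FPKM in si-SMARCA4 and 0.984 FPKM in si-Cont (a log2 fold change of 0.62, with a limma adjusted p of 1.28e-05), and it entered the test only through its si-SMARCA4 level. LRP1, another receptor of the list, averaged 2.54 FPKM in si-SMARCA4 and 3.08 FPKM in si-Cont. Its groups overlapped and it did not pass (a log2 fold change of -0.16, with a limma adjusted p of 0.469). LRPAP1, a chaperone of this receptor family, averaged 10.9 FPKM in si-SMARCA4 and 13.6 FPKM in si-Cont (a log2 fold change of -0.30, with a limma adjusted p of 0.00243). The number of genes of this list called higher was 3 without si-SMARCA4 replicate 1, and the number called lower was 1 without si-SMARCA4 replicate 2 and also without si-Cont replicate 3.

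Protease inhibitors of other families moved both ways as well. Of 41 listed, 17 were tested, 5 rose and 7 fell, with a median log2 fold change of -0.133, beside the same 22.4%, 33.6% and -0.043 for all genes tested. With the replicate block 6 rose and 9 fell. The 4 genes with the smallest p follow, and most of the genes that fell are not among them. TFPI, the tissue factor pathway inhibitor, had 11.7, 11.8 and 11.1 FPKM in si-SMARCA4 and 7.72, 7.497 and 7.51 FPKM in si-Cont (a log2 fold change of 0.55, with a limma adjusted p of 4.05e-06). TFPI also belongs to the plasminogen list and is among the genes that rose there, so the counts of the lists are not independent. TFPI2, a related Kunitz inhibitor, had 2.32, 2.03 and 1.87 FPKM in si-SMARCA4 and 0.524, 0.348 and 0.442 FPKM in si-Cont (a log2 fold change of 1.09, with a limma adjusted p of 6.09e-07), and it too entered the test only through si-SMARCA4. TIMP1, an inhibitor of matrix metalloproteinases, averaged 5.70 FPKM in si-SMARCA4 and 3.15 FPKM in si-Cont (a log2 fold change of 0.69, with a limma adjusted p of 8.24e-07). APP, whose longer isoforms carry a Kunitz inhibitor domain, averaged 42.8 FPKM in si-SMARCA4 and 64.8 FPKM in si-Cont (a log2 fold change of -0.59, with a limma adjusted p of 7.43e-06).

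**Figure D5:**
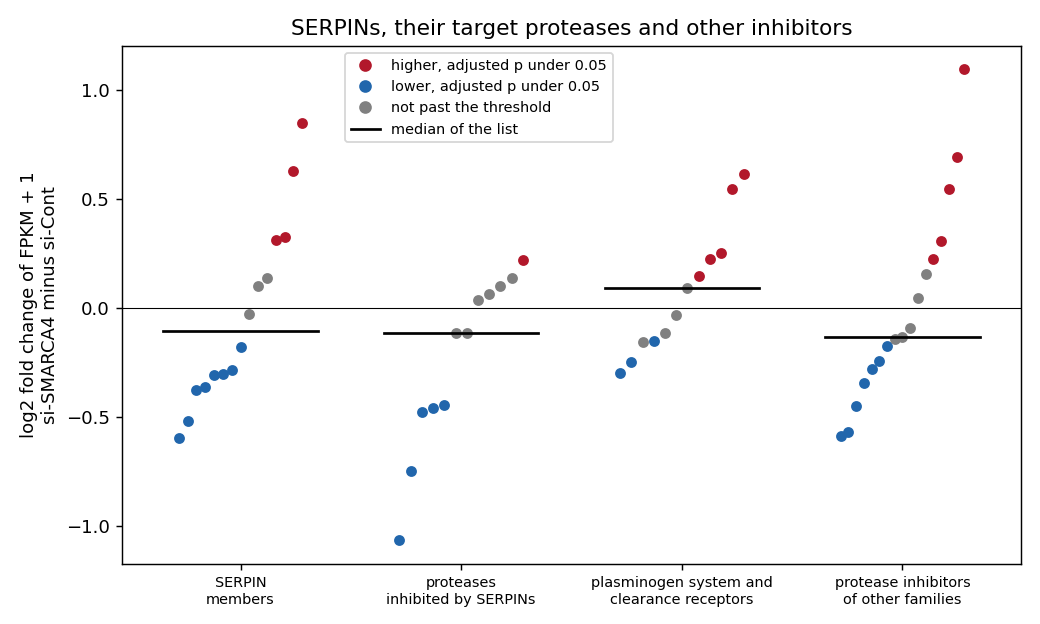
Log2 fold change of FPKM + 1 (si-SMARCA4 minus si-Cont) of tested genes, 1 point per gene, for 15 of the 16 tested SERPIN genes and for 3 gene lists (12 of 13 tested genes in the plasminogen list), with a bar at the median over all tested genes of each list (-0.103, -0.113, 0.095 and -0.133 from left to right). Every list holds genes called higher (red) and genes called lower (blue), and F7 (-1.06) is the lowest point.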

How the data were processed

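The table deposited by the authors holds FPKM for 57773 genes in 6 libraries of Hep3B total RNA. The genome build is hg19 per the submitters' processing notes. The aligner, counting program, annotation and strandedness are not given in the sources used. Groups and replicate numbers came from the sample titles. The FPKM steps gave whole reads for all 25119 genes with a mean above 0 (relative tolerance 1e-08). A count test was not used as the main test because the values are FPKM.

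Genes with a mean of at least 1 FPKM were fitted on log2(FPKM + 1) with limma 3.58.1 in R 4.3.3 (trended variance, two-sided, Benjamini-Hochberg over 11123 genes). In data simulated for this comparison on 11123 genes, 39 of 50 genes changed 1.25-fold, 49 of 50 changed 1.5-fold and 12 of 10923 unchanged genes were called. The simulated data had few changed genes, where 56.0% were called in the real data. They also had the same scatter setting for every gene, scaling by the reads over genes and no deviating library. These rates therefore need not hold for the real comparison. Members and lists were chosen with earlier results of these data known. Named genes were all SERPINs, SMARCA4, AGT, the 4 smallest p of each list, PLAU, PLAT, PLAUR and VTN, less genes that are not reported here. HMSD, INTS6, AL049839.2 and AC009802.1 were named after the overlaps were seen. Named after their values were seen were C1S, C1R, ELANE, CTSG, CTSS, CTSK, MASP2, PRSS8, TMPRSS2 and LRP1.

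Deviations of same-numbered libraries from their group means correlated at 0.215, 0.181 and 0.162, and those of other pairs at -0.171 to 0.003. The labels do not say whether the numbers pair the libraries. The main fit left the numbers out, and a fit with the replicate block was run as an alternative. All genes called numbered 6227 in the main fit and 6760 with the block. The other alternatives were other pseudocounts, filters and scalings, a fit without the variance trend, summed rows of one symbol, voom and leaving out each library. Sites were matched to GENCODE v29 transcripts (GRCh38). Python 3.11.15, numpy 2.4.6, pandas 2.3.3 and matplotlib 3.10.9 were used.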

Additional observations from a re-analysis of the deposited data

How the results depend on the processing

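Over 17 alternatives, 252 of 268 comparisons of a tested SERPIN kept sign and side of the threshold, and 12 of the 13 called members stayed called wherever tested. SERPINB6 was the exception (log2 fold change -0.162 without si-SMARCA4 replicate 2 and -0.167 without si-SMARCA4 replicate 3). SERPINA10 and SERPINB9 passed the threshold, both higher, with median-ratio scaling (0.187 and 0.148), with upper-quartile scaling (0.202 and 0.161) and after quantile normalization (0.18 and 0.14). They also passed with voom, fitted to the recovered reads and chosen after the data were seen (0.205 and 0.181). With the replicate block SERPINA10 passed (adjusted p = 0.0223) and no other SERPIN call changed. SERPINE2, not past the threshold, turned sign in those 4 fits (0.014, 0.027, 0.001 and 0.02). Called SERPINs kept their direction throughout.

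A mean of at least 5 FPKM left 3 SERPINs called higher, since SERPINA3 and SERPINB8 were not tested, and 3683 genes in all. Of all genes called, 40.1% were higher (2494 against 3733 lower), and 49.5% to 52.2% under the scalings and voom (3425 higher and 3137 lower with upper-quartile scaling). Proteases called higher numbered 1 in the fit described, 3 with no filter and with quantile normalization, 0 at 5 FPKM, and 2 with median-ratio or upper-quartile scaling, with the replicate block, with voom and without si-Cont replicate 3 (1 to 2 over the left-out libraries). In the plasminogen list the genes called higher numbered 3 to 6 and those called lower 1 to 3 over the left-out libraries, and 1 was lower with no filter and with quantile normalization. Inhibitors of other families called higher numbered 2 at 5 FPKM, and with the replicate block 6 were higher and 9 lower. The causes of these shifts were not tested. The planned quasi-likelihood count test was not run because it needs deposited counts. Members under 1 FPKM had at most 75 reads in a library, which limits what their levels can show.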
